A study of Mus musculus with 5 samples.

Results

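Sprr1a, a gene of the epidermal differentiation complex on mouse chromosome 3, was examined with 9 genes of the same stretch of the chromosome in the liver of 5 mice. The 9 genes were chosen from this stretch with earlier results of these data known. Other genes near Sprr1a, such as Sprr4, are not among them. Whether that knowledge affected the choice is not known, and tests on the 9 carry this limit. Sprr1a itself was chosen by its large spread of measured levels between these livers, so its own values are a description and were not tested. The group makes up 10 of 19938 genes measured by probe sets with a single gene symbol. All 5 animals were male wildtype C57BL/6N mice aged 5 to 6 months that had received streptozotocin, a beta-cell toxin used to induce diabetes, and bezafibrate, a fibrate that activates PPAR receptors. Streptozotocin was given at 65 mg/kg on 5 consecutive days to mice that were 10 to 16 weeks old, and bezafibrate food at 0.25% or 0.5% followed 2 weeks later for 8 weeks. Neither the bezafibrate amount nor the age at injection is known per mouse, and mice without these agents were not analysed here, so no effect of either agent was measured. Each liver was measured on 1 Affymetrix array, and the number of arrays limits the precision.

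The epidermal differentiation complex is a cluster of genes that are switched on as skin and other stratified epithelia mature. Its small proline-rich proteins, involucrin and loricrin are cross-linked by transglutaminases into the cornified envelope, and S100 genes, which encode calcium-binding proteins, lie at its borders. Liver forms no cornified envelope. In mice, Sprr1a is also known as a gene induced in injured neurons and in stressed heart muscle. In the RefSeq gene order of assembly GRCm38.p6, S100a8, S100a9 and Lor come first among the 10 genes, then Sprr1b, Sprr3 and Sprr1a lie next to one another. Sprr4, Ivl and Smcp are the next measured genes on the far side of Sprr1a, while S100a11 and S100a10 lie 32 and 33 measured genes away.

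Promoter sequences of 9 of the 10 genes were found in RefSeq (GRCm38.p6). The 250 bases before the transcription start are printed 5′ to 3′ for Sprr1a, for its close relative Sprr1b, and for the 3 neighbours with the widest spread between livers. Capitals mark TGANTCA, the motif of AP-1 transcription factors, TTCNNNGAA, a motif of STAT factors, and the TATA box TATAAA.
Sprr1a, chr3:92485882-92486131, minus strand: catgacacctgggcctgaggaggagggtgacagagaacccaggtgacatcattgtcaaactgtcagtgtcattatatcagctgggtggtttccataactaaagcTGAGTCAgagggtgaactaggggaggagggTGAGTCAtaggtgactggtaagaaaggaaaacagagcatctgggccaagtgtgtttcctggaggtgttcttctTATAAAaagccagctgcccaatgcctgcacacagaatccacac
Sprr1b, chr3:92438780-92439029, minus strand: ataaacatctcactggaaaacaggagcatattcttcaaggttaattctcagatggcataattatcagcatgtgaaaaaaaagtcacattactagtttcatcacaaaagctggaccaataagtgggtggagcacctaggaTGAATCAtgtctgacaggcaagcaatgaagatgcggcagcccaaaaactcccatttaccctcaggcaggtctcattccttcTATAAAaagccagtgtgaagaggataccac
Ivl, chr3:92573736-92573985, minus strand: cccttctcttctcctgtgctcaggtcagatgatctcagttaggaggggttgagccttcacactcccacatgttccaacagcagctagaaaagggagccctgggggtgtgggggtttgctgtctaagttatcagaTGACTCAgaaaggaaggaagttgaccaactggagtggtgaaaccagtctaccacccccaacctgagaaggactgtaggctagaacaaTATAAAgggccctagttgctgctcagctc
Smcp, chr3:92589074-92589323, minus strand: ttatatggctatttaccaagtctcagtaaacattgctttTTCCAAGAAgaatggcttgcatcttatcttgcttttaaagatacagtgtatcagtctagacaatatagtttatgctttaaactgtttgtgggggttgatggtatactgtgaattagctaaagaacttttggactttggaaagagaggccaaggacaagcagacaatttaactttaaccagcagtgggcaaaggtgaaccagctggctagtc
S100a11, chr3:93520246-93520495, plus strand: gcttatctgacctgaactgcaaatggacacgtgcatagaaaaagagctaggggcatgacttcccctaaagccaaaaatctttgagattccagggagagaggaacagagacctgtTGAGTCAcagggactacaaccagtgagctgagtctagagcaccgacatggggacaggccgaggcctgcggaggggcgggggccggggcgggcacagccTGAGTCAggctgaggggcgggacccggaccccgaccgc

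TGANTCA, searched on both strands, was found in 5 of the 9 windows, against 6.75% of 32851 windows of this length over all genes. The window of Sprr1a held 2 matches, which begin 146 and 116 bases before the start, and that of S100a11 also held 2. Ivl, Sprr1b and Lor had 1 match each, and Smcp, Sprr3, S100a8 and S100a9 had no such letters in the window. TTCNNNGAA, also searched on both strands, was found in 1 of the 9 windows, that of Smcp (7.02% of all windows). AGGTCA, the half-site bound by many nuclear receptors including PPARs, was found on either strand in the windows of Ivl and S100a11 and in 14% of all windows. TATAAA, on the gene's strand only, was found in 6 of the 9 windows, those of Smcp, S100a9 and S100a11 excepted, and in 7.59% of all windows. A match is a run of letters and does not show binding.

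Levels are given on the log2 scale of the deposited RMA values, so a step of 1 is a doubling of the signal. Different probe sets are not equally bright per transcript, so genes are not ranked by level. A brightness floor was set on each array from 1210 probe sets for smell and pheromone receptors (olfactory and vomeronasal), taken as silent in liver, as their 95th percentile. The floor ranged between 5.59 in mouse 1 and 6.07 in mouse 4. Of these receptor probe sets, 76.0% were brightest in mouse 4, as were 28.3% of the 5469 other genes too dim to test. Each array was therefore also shifted by its median receptor level, a setting chosen after seeing the data. After that shift 1.3% of the dim genes were highest in mouse 4, and of the 9 neighbours of Sprr1a 0 were, against 3 before it. The shift lowers mouse 4 and raises mice 1 and 2 by construction, so this drop is no separate result.

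Sprr1a was above the floor in every liver and differed widely between them. Its level was 8.998 in mouse 1, 9.55 in mouse 2, 7.78 in mouse 3, 10.09 in mouse 4 and 11.90 in mouse 5, with a mean of 9.66 ± 1.52 (SD, n = 5). Mouse 5 lay highest and mouse 3 lowest, a 17.5-fold difference in signal, and the other livers were spread between them without clustering at either end. The median SD of the 13336 genes tested was 0.12. Because bulk liver was measured, more cells with the transcript and more transcript per cell cannot be told apart.

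The other small proline-rich genes of the group, which code for envelope precursors like SPRR1A, stayed near or below the floor. Sprr1b, whose protein is the closest in kind to SPRR1A, had 5.57, 5.73, 5.75, 6.07 and 6.01 in mice 1 to 5, a mean of 5.83 ± 0.21 (SD, n = 5). Sprr1b exceeded the floor in 3 livers, by a small margin, and it was highest in mouse 4, which also had the highest floor, but in mouse 5 after the shift. Sprr3, a gene of oral and oesophageal epithelium, had 4.49, 4.59, 4.42, 4.98 and 4.57 in mice 1 to 5. It was below the floor in every liver and again highest in mouse 4, but in mouse 2 after the shift. Sprr3 and Sprr1b are the nearest measured genes on one side of Sprr1a, and since spans near the floor are compressed, no fold is given for them.

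**Figure D1:**
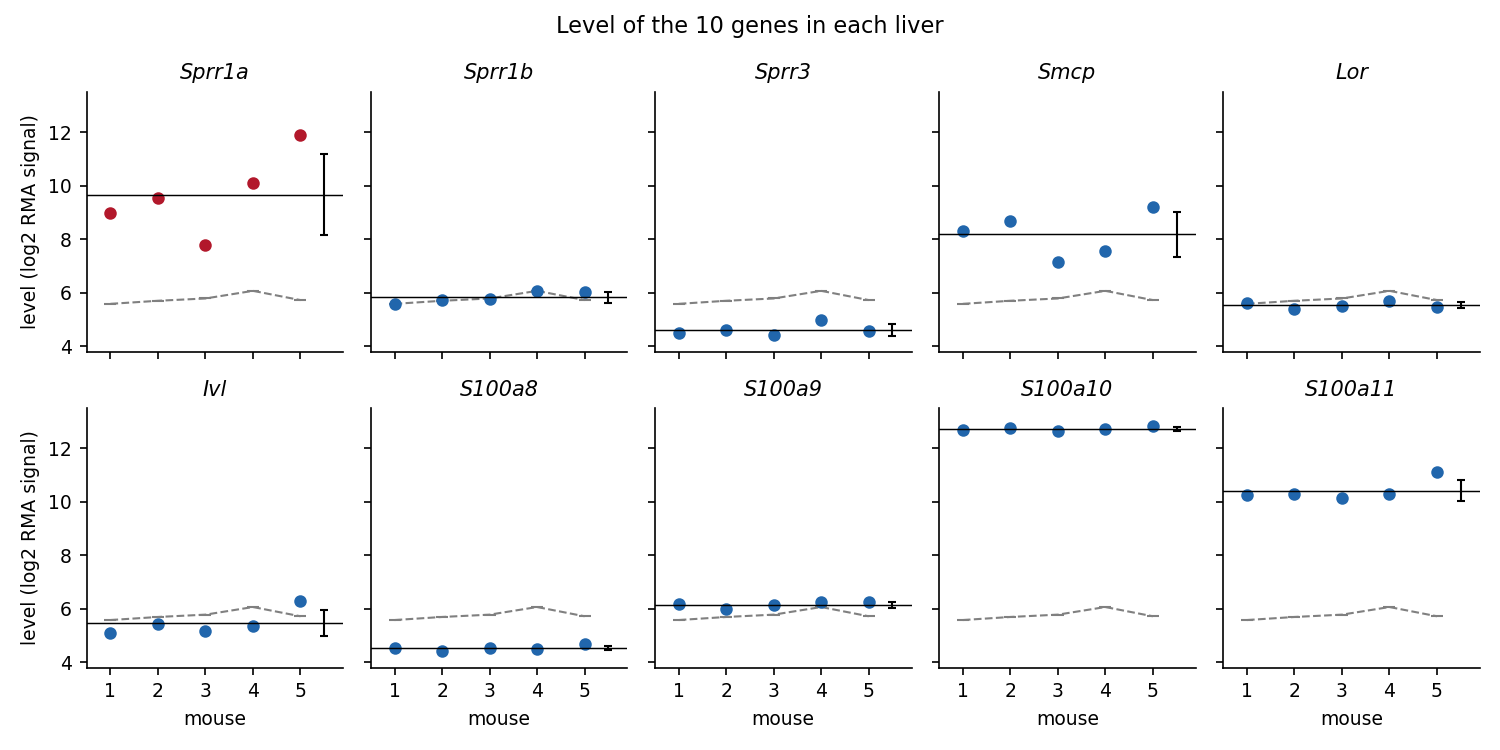
Level of each of the 10 genes (vertical axis, log2 RMA signal) in mice 1 to 5 (horizontal axis). Points are single livers, the black line and bar are the mean and SD over the 5 mice, and the dashed grey line is the brightness floor of each array. Sprr1a spans 7.78 to 11.90 and Smcp 7.15 to 9.21, while Sprr3 and S100a8 lie under the floor in all livers.

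Smcp, on the other side of Sprr1a, had the widest spread of the 9 neighbours. It encodes a cysteine-rich protein of sperm mitochondria, and a measurable level in liver was found in all mice. Its level was 8.30, 8.68, 7.15, 7.55 and 9.21 in mice 1 to 5, with a mean of 8.18 ± 0.84 (SD, n = 5). As for Sprr1a, mouse 5 was highest and mouse 3 lowest, and mouse 5 exceeded mouse 3 4.19-fold. Mouse 4 departed from this likeness: it was second highest for Sprr1a and second lowest for Smcp. The SD of Smcp lay above that expected at its mean level (expected SD 0.12, limma F test, adjusted p = 0.0322), and 0.165% of tested genes had an SD at least as large. Smcp was the 1 gene called among the 5 neighbours bright enough to test, where 0.357% of all 14586 probe sets tested were called. That call was lost without mouse 2 (adjusted p = 0.0659), mouse 3 (0.122) or mouse 4 (0.153), with SDs of 0.91, 0.70 and 0.88. The call was also lost under 6 of the 7 other fits, with adjusted p values up to 0.277, and kept without mouse 1 (0.014), without mouse 5 (0.0305) and with arrays centred on their medians (0.00303). The number of all probe sets called moved too, from 52 to 34, 30 and 0 without mice 2, 3 and 4. It was 69 without mouse 1, 63 without mouse 5, 142 with centred arrays and 0 with all probe sets in the fit. Where 0 were called, the loss was not particular to Smcp.

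Ivl, which encodes involucrin, an early component of the cornified envelope, lies between Sprr1a and Smcp. Its level was 5.11, 5.46, 5.18, 5.35 and 6.31 in mice 1 to 5 (mean 5.48 ± 0.49, SD, n = 5). Mouse 5 alone exceeded the floor, and the other 4 livers lay below it, so only a bound can be given: mouse 5 was at least 1.44-fold above the floor of mouse 3. Its mean was under the floor of the means, 5.77, and Ivl was therefore not tested. Lor, which encodes loricrin, the main protein of the mature envelope, had 5.60, 5.41, 5.49, 5.69 and 5.47. Lor exceeded the floor in mouse 1 alone, by a small margin, and mouse 5 was not raised. Sprr4, the gene between Sprr1a and Ivl, had 5.28, 5.41, 5.67, 5.86 and 5.83 and exceeded the floor in mouse 5 alone.

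**Figure D2:**
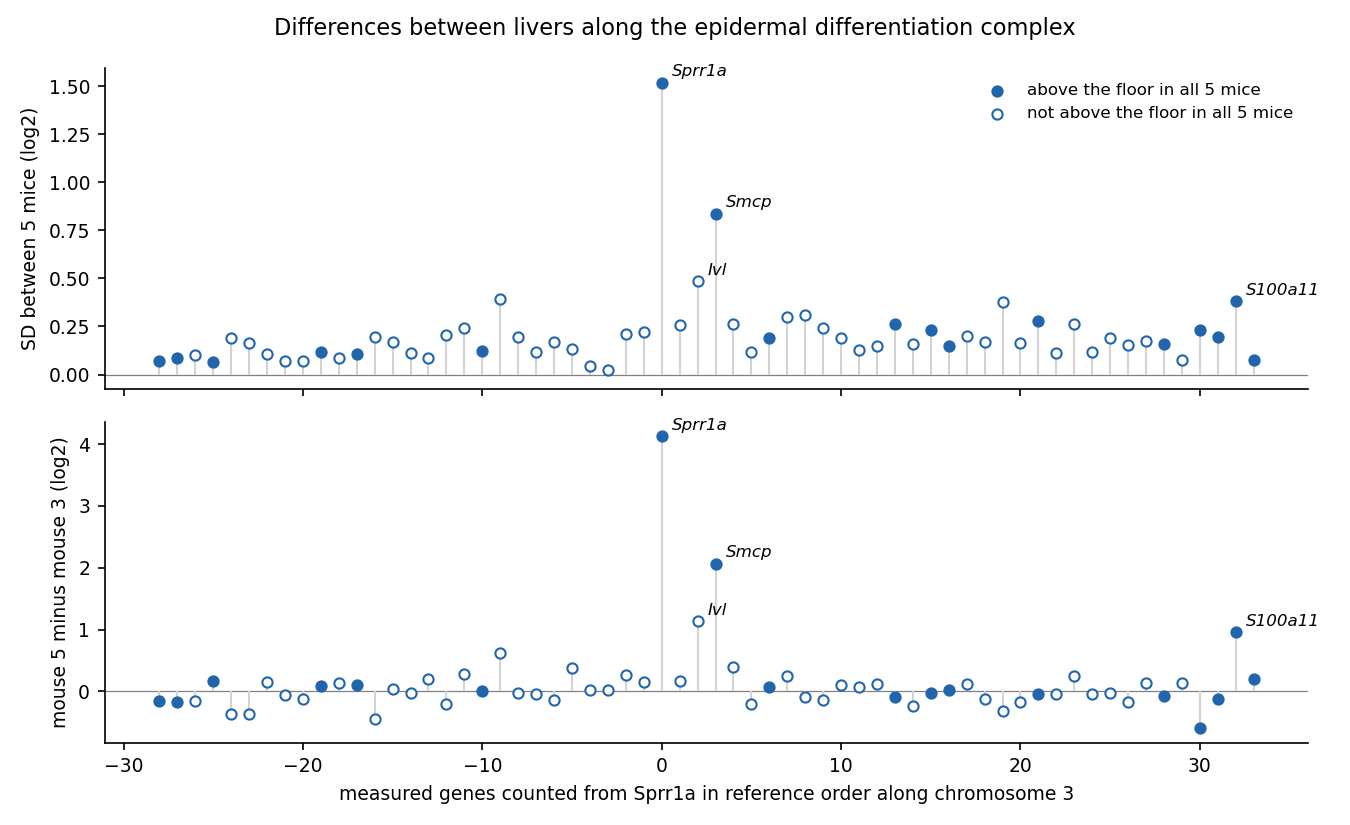
SD between the 5 mice (upper panel, log2) and difference of mouse 5 minus mouse 3 (lower panel, log2) for the 62 measured genes from S100a1 to S100a10, counted from Sprr1a in chromosomal order. Filled points are genes above the floor in all 5 livers and open points are the rest. Sprr1a (SD 1.52), Smcp (0.84) and Ivl (0.49) have the largest SDs, and the 52 genes outside the group of 10 have SDs of at most 0.39.

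Among the S100 genes, S100a11 was raised in a single liver. S100A11 is a calcium-binding protein known as a partner of annexin A1. Its level was 10.26, 10.31, 10.14, 10.31 and 11.10 in mice 1 to 5, with a mean of 10.42 ± 0.38 (SD, n = 5). Mouse 5 stood apart from the other livers, and mouse 3 was lowest, a 1.94-fold difference. Without mouse 5 the SD was 0.0785. The spread did not pass over all probe sets (limma adjusted p = 0.21, unadjusted p = 0.00277 from the same F test, which is not an exact test). S100a11 was the 1 member with more than 1 probe set. The probe set used had a mean of 10.42, and the dimmer one, with a mean of 10.12, gave 9.97, 10.02, 9.88, 9.99 and 10.76. The same liver was raised in both. The platform annotation lists the same accessions for them, and whether they share probes was not examined.

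S100a10, whose protein forms a complex with annexin A2, was the steadiest of the 10 genes. Its level was 12.70, 12.76, 12.64, 12.72 and 12.84 in mice 1 to 5 (mean 12.73 ± 0.08, SD, n = 5), a 1.15-fold span, which was no more than the spread expected at that level (expected SD 0.08, limma adjusted p = 0.992). S100a8 and S100a9 encode calprotectin, a protein complex abundant in neutrophils and monocytes. S100a8 lay between 4.44 and 4.68, under the floor in all livers. S100a9 lay between 5.98 and 6.25, above the floor in all livers by a small margin, with an SD of 0.11 against an expected 0.13 (limma adjusted p = 0.992).

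Whether the neighbours followed Sprr1a was described by the order of the mice. Over the 10 pairs of mice, S100a11 had all 10 in the same order as Sprr1a and S100a10 had 9. Smcp, Ivl, Sprr3 and S100a9 had 8, Sprr1b had 7, S100a8 had 6 and Lor had 5. At least 8 pairs were reached by 4 of the 5 tested neighbours, against 9.3% of 13335 tested genes, and by 6 of all 9 neighbours. Sprr3 and Ivl, among the 6, were too dim to test, and the shares given for pair counts cover tested genes only. Of the 52 other measured genes of the complex, 9 reached 8 pairs, and 38 of these 52 were below the floor in every liver. With 5 mice the order is coarse, and small differences count as much as large ones: S100a10 reached 9 pairs with a span of 1.15-fold. S100a11 reached 10 with mice 2 and 4 almost equal, at 10.308 and 10.309. In its dimmer probe set mouse 2 lay above mouse 4 instead, at 10.02 and 9.99. The count is therefore read with the sizes. Mouse 5 exceeded mouse 3 4.19-fold for Smcp, 1.94-fold for S100a11 and at least 1.44-fold for Ivl, against 1.15-fold for S100a10 and 1.07-fold for S100a9. Sprr1b exceeded its floor in mouse 5 but not in mouse 3, and Sprr3, Lor and S100a8 were below the floor in both, so no fold is set beside these. The same highest and lowest mouse as in Sprr1a was found for Smcp, S100a10 and S100a11, 3 of 9 neighbours, against 7.18% of tested genes. The count of neighbours with at least 8 pairs rested partly on mouse 5. Without mouse 5, 3 of 9 neighbours had at least 5 of the 6 remaining pairs in the order of Sprr1a, against 9.75% of tested genes. When each array was shifted by its median receptor level, 2 of 9 neighbours, Sprr1b and Smcp, had at least 8 pairs, against 1.01% of tested genes. That shift also lowers mouse 4 for bright genes.

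**Figure D3:**
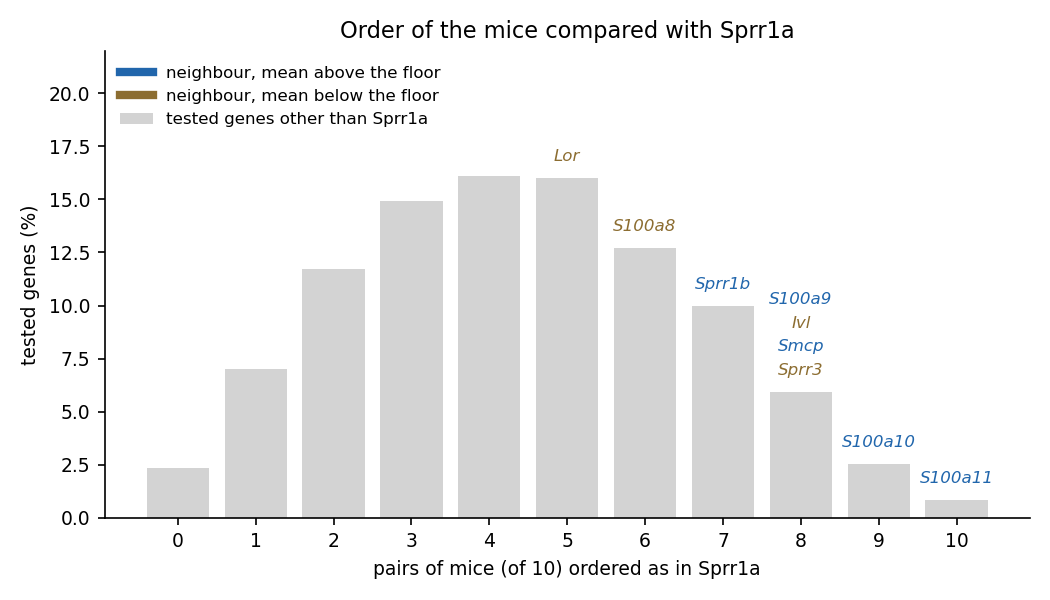
Share of the 13335 tested genes other than Sprr1a (vertical axis, %) by the number of pairs of mice, of 10, that are ordered as in Sprr1a (horizontal axis). Gene names mark the 9 neighbours, in blue where the mean lay above the floor and in brown where it lay below. S100a11, by its brighter probe set, stands at 10 pairs and Lor at 5.

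Beyond these genes, 52 other genes of the complex had a probe set of their own, and most were too dim to test. Of these, 13 were tested, 0 were called with limma, and 1, the late cornified envelope gene Lce3c, had an unadjusted p under 0.05 by the F test, which is not an exact test. Their median SD was 0.17, against 0.12 for tested genes, which are brighter, and 38 were below the floor in every liver. Highest in mouse 4 were 29 and in mouse 5 were 6. After the shift by the receptor level 3 were highest in mouse 4 and 9 in mouse 5, and most were highest in mice 1 to 3. The move of dim genes away from mouse 4 is built into that shift. Beside these counts, 28.3% of other genes too dim to test were highest in mouse 4, and 1.3% after the shift. Of tested genes, 19.2% were highest in mouse 5 without the shift. Among 10 further small proline-rich genes, Sprr2e (SD 0.39) and Sprr4 (0.26) were widest. Sprr2e, with 4.29, 4.52, 4.65, 5.03 and 5.26 in mice 1 to 5, was highest in mouse 5 but never above the floor. The Sprr2a genes share probe sets that carry several symbols, so they were not assigned to a gene or tested in the main fit. These sets were above the floor in all livers and highest in mouse 4. The brightest, which also carries the symbol Sprr2b, had 7.06, 6.86, 7.12, 7.75 and 7.47 in mice 1 to 5 (SD 0.35). The rest had a mean of 6.57 (SD 0.24). Of 19 late cornified envelope genes, 15 were highest in mouse 4 and 3 after the shift, and Lce3a (SD 0.38) and Lce1c (0.31) were widest, both under the floor. Among 6 genes of the filaggrin type, Tchh (SD 0.23) and Tchhl1 (0.19) were widest, and both were lower in mouse 5 than in mouse 3. Tchh had 2 pairs of mice in the order of Sprr1a and Tchhl1 had 6. Flg2 and Rptn of the same family had 8 each, but lay under the floor in all livers. Of 6 genes of other kinds, with Lelp1 and Kprp (both SD 0.20) widest, 0 exceeded the floor in any liver. Among 9 other listed S100 genes of the chromosome, S100a3 (SD 0.19) and S100a7a (0.12) were widest. S100a2, which lies in the stretch but was not on the list, had an SD of 0.17, and S100a1, at the far border, was steady at 11.59 ± 0.07.

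The genes whose profile over the livers lay nearest to that of Sprr1a were found outside the group of neighbours. Likeness was measured as the root-mean-square difference of the values over the 5 mice after each gene was centred on its own mean, so a small number means a near profile. Mybl1, of the Myb family of transcription factors, was nearest at 0.49, although it had 7 of 10 pairs in the order of Sprr1a and its level in mouse 3, 5.53, was under the floor. It was followed by Cd24a, which encodes a surface sialoglycoprotein (0.73), Mfge8, a secreted glycoprotein that bridges dying cells to phagocytes (0.74), and Gpx3, a secreted glutathione peroxidase (0.76). Cachd1 (0.79), Prom1, which encodes the membrane protein prominin 1 (0.80, also under the floor in mouse 3), Gdpd1 (0.82), Fndc10 (0.82), Mtmr11 (0.82) and the protease inhibitor gene Serpinb6a (0.83) completed the 10 nearest. Cd24a had 8.34, 8.70, 8.21, 8.73 and 10.19 in mice 1 to 5, and Mfge8 had 8.68, 8.96, 8.06, 8.98 and 9.99. Both had all 10 pairs in the order of Sprr1a, as did Gdpd1, Fndc10 and Serpinb6a. All 10 were highest in mouse 5, and 9 were lowest in mouse 3, with Cachd1 lowest in mouse 1. The choice by likeness favours such shared ends and orders, so they are no separate result. On this measure Smcp ranked 32 and S100a11 79 among the 13335 tested genes, with differences of 0.93 and 1.06. With each gene also divided by its SD, 1 of the 10 genes, Serpinb6a, stayed among the nearest, so the list depends on the measure. The ranks depend on it too: after this division Smcp ranked 1008, S100a11 261 and S100a10 86, the last from 1605 without it.

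**Figure D4:**
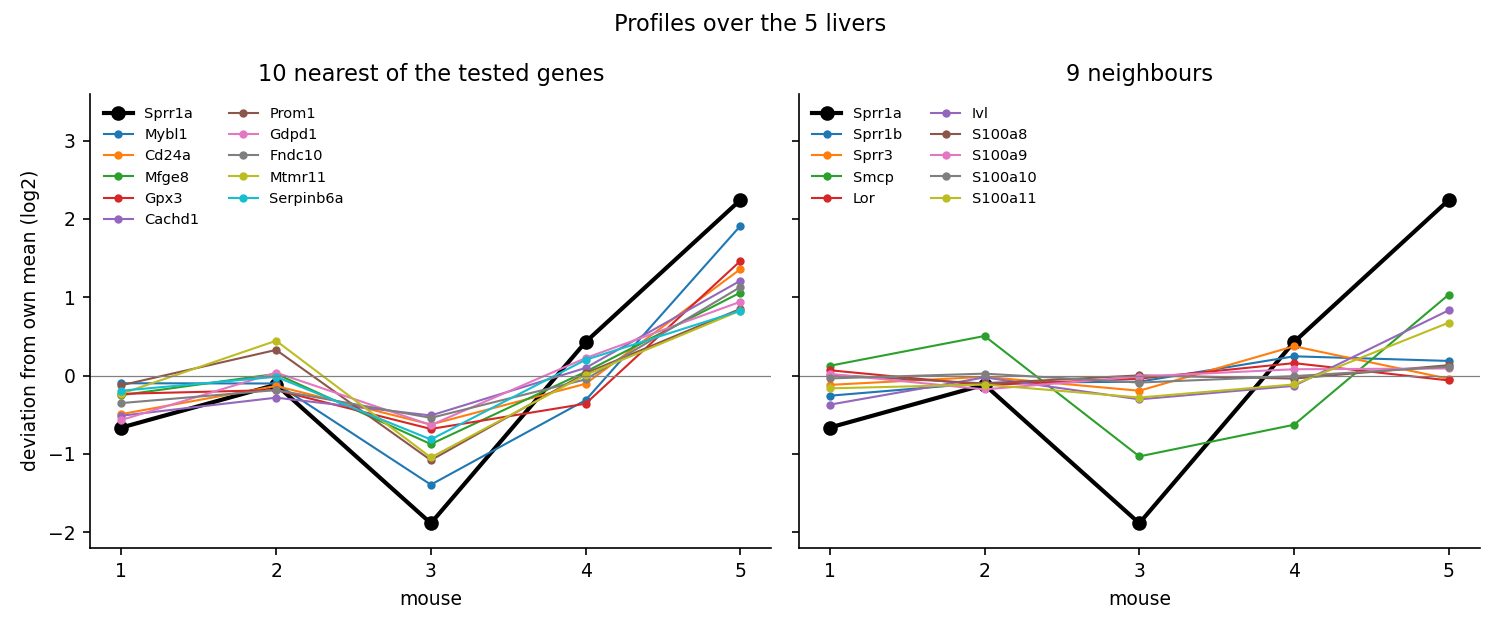
Deviation of each gene from its own mean over the 5 mice (vertical axis, log2) in mice 1 to 5 (horizontal axis), for Sprr1a with its 10 nearest tested genes (left) and with its 9 neighbours on the chromosome (right). Lines join the points of a gene to guide the eye and the mice have no order. In mouse 5 Sprr1a lies 2.24 above its mean, Mybl1 1.91 and Smcp 1.03.

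Genes of the same pathways outside the complex were set beside these values. None of these lists had a member whose spread passed over all probe sets with limma, so counts at an unadjusted p under 0.05 from the F test, which is not an exact test, are given. That level was reached by 6.34% of all probe sets tested. Of 16 genes of the cornified envelope outside the complex, 9 were tested and 0 reached that level. Tgm3 (SD 0.26) and Tgm1 (0.23), which encode transglutaminases, were widest, and Tgm1 was lowest in mouse 5, at 7.61. Tgm3 had 5 pairs in the order of Sprr1a and Tgm1 had 1. Of the 16, 3 had at least 8 pairs, against 9.3% of tested genes. These were Ppl (9 pairs, 7.95 in mouse 5 and 7.43 in mouse 3) and, under the floor in all livers, Casp14 and Klk5 (8 each). Of 6 S100 partners and receptors, 5 were tested and 0 reached it. The S100a10 partner gene Anxa2 had 9.90, 9.90, 9.68, 9.69 and 10.06 in mice 1 to 5, and the receptor gene Tlr4 (SD 0.20) lay under the floor. Of the 6, 2 had at least 8 pairs in the order of Sprr1a, Cd36 with 9 and Anxa2 with 8. Both were highest in mouse 5 and lowest in mouse 3.

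Genes of AP-1 subunits and partners were on average highest in mouse 5, by 0.20, with mean deviations of 0.01, -0.12, 0.01 and -0.10 in mice 1 to 4. Of the 10 genes, 6 were highest in mouse 5, against 19.2% of tested genes, and 1, Jun, had at least 8 pairs in the order of Sprr1a. Of the 9 tested, 2 reached an unadjusted p under 0.05 (not exact). Jun had 8.33, 8.01, 7.98, 8.14 and 8.84 in mice 1 to 5 (SD 0.35, limma adjusted p = 0.431), and Atf3, a stress-induced partner, had 7.29, 7.04, 7.19, 6.89 and 7.75 (SD 0.32, limma adjusted p = 0.598). Jun had 8 pairs of mice in the order of Sprr1a and Atf3 had 5. In 12 genes known from axon regeneration, which share Atf3 with the previous list, the mean deviation was 0.17 in mouse 5 and between -0.11 and 0.0035 in the others, 3 of 8 tested reached that level, and Klf6 was widest (SD 0.37), at 8.23 in mouse 5. Of 14 measured genes listed under IL-6 family signalling, 3 of 10 tested reached it, though 1 of the 3, Il1b, is a gene of the IL-1 family. The cytokine gene Clcf1 (SD 0.31) was 7.26 in mouse 5 and 6.38 in mouse 3, and Il1b (0.30) was near the floor. The receptor gene Lifr (SD 0.29), the third of these, ran the other way, with 8.93 in mouse 5 and 9.69 in mouse 3.

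Markers of other cell types were set against the order of Sprr1a. The summed linear signal of 11 neutrophil markers lay between 443.0 in mouse 3 and 479.9 in mouse 4, which had the highest floor, with 476.5 in mouse 5. Under the floor in all livers were 7 markers, Ly6g among them. Retnlg (SD 0.20) and Csf3r (0.20) were widest, with 9 and 7 pairs in the order of Sprr1a. Retnlg, under the floor in all livers, was the 1 marker of the 11 with at least 8 pairs. For 8 keratinocyte markers the summed signal lay between 423.5 in mouse 5 and 457.1 in mouse 3. Of these, 2 markers were above the floor in all livers and 2, Krt1 among them, above it in none. The single markers shared no order: 2, 2, 2, 1 and 1 of them were highest in mice 1 to 5. Of the widest, Krt14 and Trp63 (both SD 0.16), Krt14 was highest in mouse 5, with 7 pairs in the order of Sprr1a. Trp63 was lowest there, with 3 pairs. The summed signal of 5 cholangiocyte markers lay between 428.2 in mouse 3 and 518.3 in mouse 2, with 474.9 in mouse 5. Epcam (SD 0.29) had 9 pairs in the order of Sprr1a, Krt19 8 and Sox9 (SD 0.22) 5, while Krt7 and Cldn7 had 1 each. Of 8 Kupffer cell and macrophage markers, 7 were highest in mouse 1, by 0.38 on average over the list, and their summed signal lay between 4037 in mouse 2 and 5554 in mouse 1, with 5292 in mouse 5. An unadjusted p under 0.05 (not exact) was reached by 4 of 8, Adgre1 (SD 0.41), Timd4 (0.40), Marco (0.30) and Vsig4 (0.26), the last of which was highest in mouse 5. Of 6 stellate markers, 4 were highest in mouse 1, with a mean deviation of 0.18 there and Colec10 (SD 0.22) and Hgf (0.21) widest, and 2 were highest in mouse 5. Hgf was one of these, at 7.58 in mouse 5 and 7.09 in mouse 3, with 8 pairs in the order of Sprr1a. Of 6 endothelial markers, 4 were highest in mouse 1, with a mean deviation of 0.10, and of the widest, Stab2 (0.15) was among them while Lyve1 (0.11) was highest in mouse 3. Hepatocyte markers, with Hnf4a (SD 0.13) and Apoa1 (0.11) widest, were all 5 above the floor in all livers. Their mean deviation was at most 0.05 in any mouse, while Hnf4a alone was 0.23 below its mean in mouse 3. The part of cell mixture in the spread of Sprr1a was not tested.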

How the data were processed

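Log2 values of 35556 probe sets on 5 arrays were used as deposited by the authors. Per the submitters' processing notes, RMA and Affymetrix Expression Console 1.2 were used, and their settings and the genome build are not given in the sources used here. Gene names came from the platform annotation, and 21789 probe sets had exactly 1 symbol. The probe set with the highest mean stood for a gene. The members and lists were chosen with earlier results of these data known.

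Each probe set's mean and variance over the mice were estimated with limma 3.58.1 in R 4.3.3. A one-sided F test asked whether that variance exceeded the one expected at the same mean level (fitFDistRobustly, 6.21 prior degrees of freedom). All 14586 probe sets with 1 symbol and a mean above 5.77, the 95th percentile of the receptor means, were tested, with Benjamini-Hochberg adjustment at 0.05. The script was tested on simulated data. Genes were named as all members, the 2 widest of each list and the 10 nearest to Sprr1a, leaving out predicted genes, small RNAs and receptors. Further genes were picked after their values were seen. Promoters came from RefSeq (GRCm38.p6). Alternatives were other normalizations, filters, variance fits, probe set summaries and leaving out each mouse. Python 3.11.15, numpy 2.4.6 and pandas 2.3.3 were used. The labels call the samples biological replicates, and the spread includes technical spread.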

Additional observations from a re-analysis of the deposited data

Results flagged for a closer look

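In 4 of the 20 genes looked at (the 10 genes of the complex and the 10 nearest to Sprr1a), 1 liver lay far from the other 4, and in each it was the highest, mouse 5. The gap to the next liver, as a share of the whole range, was 0.711 for Ivl, 0.825 for S100a11, 0.738 for Cd24a and 0.768 for Gpx3. Chance flags about 1 in 20 groups, and 5.65% of the tested genes had such a liver. Cd24a and Gpx3 were picked for their likeness to Sprr1a, which is itself highest in mouse 5, so these flags are not independent of it.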

How the results depend on the processing

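The number of neighbours called for their spread was 1 (Smcp) as deposited, and 0 with quantile normalization, without the filter on dim probe sets, with the filter at the 99th percentile, with a plain instead of a robust variance fit, with no trend on the mean and with all probe sets in the fit. With these settings limma's adjusted p for Smcp was 0.0547, 0.0617, 0.0525, 0.183, 0.0863 and 0.277, while 2 neighbours (3 without the filter) had an unadjusted p under 0.05 from the F test (not exact). Over the whole array the same settings called 38, 40, 18, 18, 24 and 0 probe sets, against 52 in the main fit. Leaving out 1 mouse gave 0 to 1 neighbours called. The number of other complex genes called was 0 in every setting run, with 0 to 5 at an unadjusted p under 0.05 (not exact). The number of neighbours in the mouse order of Sprr1a was 6, between 3 and 6 when 1 mouse was left out, and 2 with each array shifted by its median receptor level. The last setting, chosen after seeing the data, also moved the SD of S100a8 to 0.201 and that of S100a10 to 0.196. The cause of these changes was not tested, except that fewer mice give fewer pairs. No paired analysis was possible because there was 1 group of mice. Dim genes of the complex are limited by the floor, and the spread of genes below it carries little information.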
